A study of Mus musculus with 8 samples.

Results

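The enzymes of fatty acid oxidation described here are 36 mouse genes, taken as a named list and found on the array by matching each probe's RefSeq accession to the gene symbol. All 36 were among the 19254 genes tested, and where a gene had several probes the brightest was used. Of the 36 genes, 19 encode mitochondrial proteins, 11 peroxisomal proteins, 2 proteins of both organelles (Crat and Eci2) and 4 are acyl-CoA synthetases found on several membranes. RNA came from mouse small intestinal organoids, which are epithelial cultures grown in Matrigel from intestinal crypts. They represented 2 wild-type lines established independently of each other. Culture lasted 6 days. The control had no compound, and the 3 treated groups received CHIR99021 at 3 µM, valproic acid (VPA) at 1 mM, or the same doses of both compounds. This gave 8 arrays, with 2 per group and 1 per line. On every array the sample was labelled with Cy5 and control RNA of the same line with Cy3, so each gene's value is the log2 ratio of the sample to its line's control.

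To obtain a difference from control, the control ratio was subtracted from the treated one, which removes a constant offset between the dyes. The control arrays held control RNA in both dyes, so their spread leaves out differences between control cultures. Standard errors and p-values pool this with the spread between 2 organoid lines in the treated groups, so both can be too small. Adjusted p-values come from limma with Benjamini-Hochberg adjustment over all 19254 genes, and a gene is said to have risen or fallen where this value was under 0.05. Errors are standard errors of the fit with n = 2 arrays per group. Between 60.6% and 64.6% of an array's spots were well above background in Cy5, and 0 were saturated. Of the 36 genes, 35 were well above background in Cy5 on all 8 arrays. The exception was Acot3, which was above background on both control and both VPA arrays, on 0 of the 2 CHIR99021 arrays and on 1 of the 2 arrays with both compounds. The 14 enterocyte markers examined were all above background on the control arrays, while the endothelial genes Pecam1, Cdh5 and Kdr were above it on 0 arrays. Of the blood cell genes, Cd3e was above it on 8 arrays, Lyz2 (also listed for Paneth cells) on 7, Cd79a on 5 and Ptprc on 1. The fibroblast genes Vim and Col1a2 were above it on 8, Col1a1 on 4, Col3a1 on 2 and Dcn on 0.

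Fatty acids are burned by removing acetyl units from acyl-CoA in a repeating cycle of dehydrogenation, hydration, a further dehydrogenation and thiolysis. Long chains are first joined to coenzyme A, passed into mitochondria as carnitine esters and shortened there, with electrons handed on through the electron transfer flavoprotein. Very long and branched chains are shortened in peroxisomes by a separate set of enzymes whose products leave as carnitine esters or free acids. Absorptive enterocytes of the small intestine carry out this oxidation, and many of its genes are known targets of the nuclear receptor PPAR alpha. CHIR99021 blocks the kinase GSK3 and thereby activates Wnt signalling. VPA blocks histone deacetylases and is itself a branched fatty acid that the liver degrades in part by beta-oxidation.

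With VPA alone, 16 of the 36 genes rose, 1 fell and 19 did not pass the test. Of all genes tested, 6.58% rose, 4.27% fell and 10.9% were called in either direction. The median difference from control was 0.56 (log2) over the 36 genes and -4e-04 over all genes. The list was chosen with earlier results of these data known, so its contrast with all genes is not an independent test. Values were positive for 32 of the 36, and 28 were positive in both lines. Both VPA arrays lay above both control arrays for 27 of the 36 genes and for 28.9% of all genes. Groups without overlap are thus common with 2 arrays per group. The median was 0.41 in line 1 and 0.69 in line 2. Genes for carnitine transfer, the mitochondrial trifunctional protein, peroxisome division and acyl-CoA thioesterases were among those that rose. Because RNA was taken from whole cultures, a change in the share of a cell type and a change in RNA per cell cannot be told apart.

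**Figure D1:**
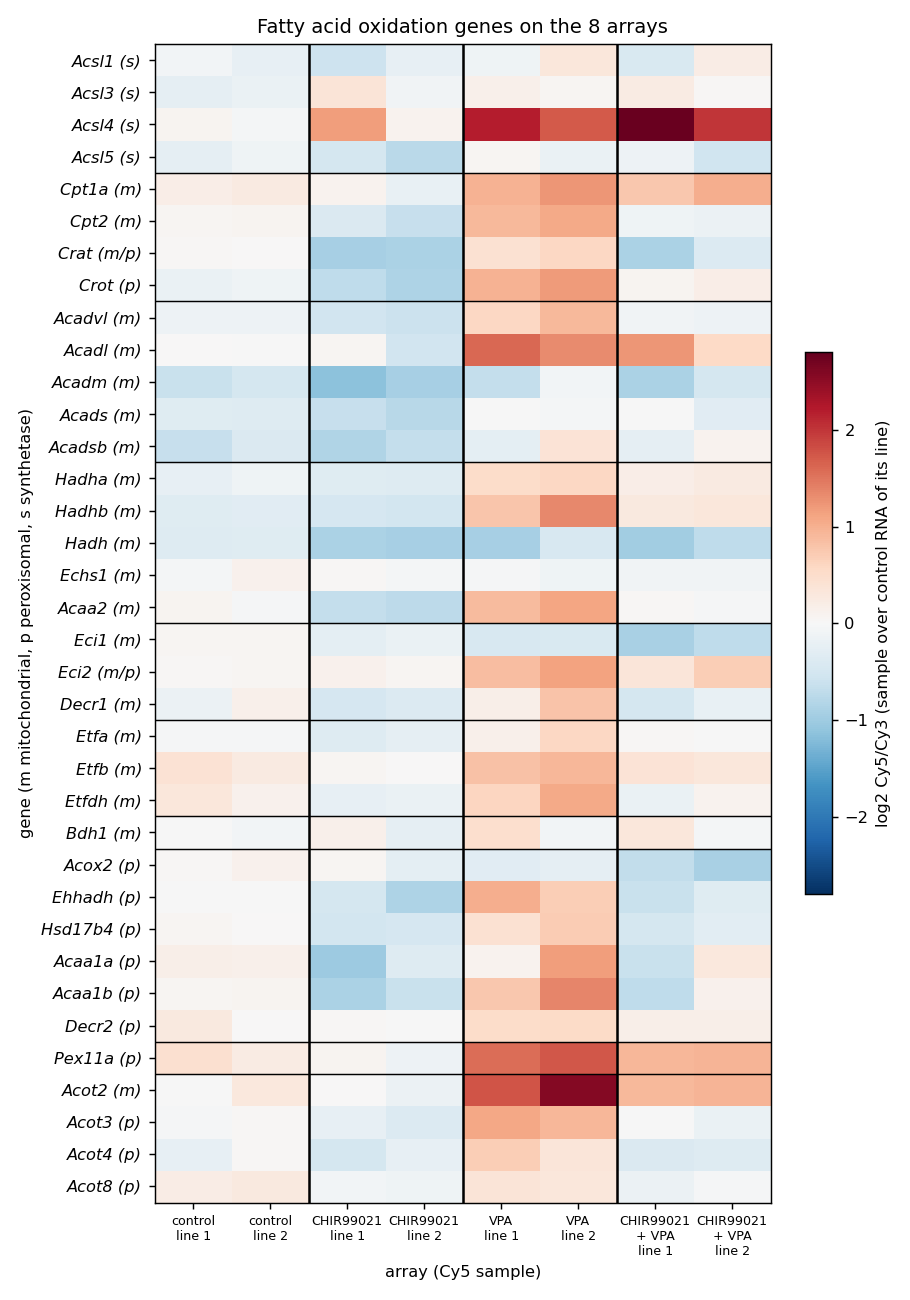
Log2 Cy5/Cy3 of the 36 fatty acid oxidation genes (rows, grouped by role, with m for mitochondrial, p for peroxisomal and s for synthetase) on the 8 arrays (columns, by group and organoid line). Both VPA columns are mostly red, with Acot2 at 1.77 and 2.56, while both CHIR99021 columns are mostly pale blue.

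Among the acyl-CoA synthetases, which attach coenzyme A to free fatty acids, Acsl4 is known for its preference for arachidonic acid and related polyunsaturated chains. In lines 1 and 2 respectively, Acsl4 read 0.08 and -0.05 in control, 1.17 and 0.11 with CHIR99021, 2.21 and 1.73 under VPA, and 2.77 and 1.99 with both compounds. The VPA arrays lay far above the control arrays, whereas with CHIR99021 only line 1 stood apart. The VPA difference was 1.95 ± 0.39 (adjusted p = 0.028, limma), and a second, dimmer probe of Acsl4 gave 1.04. Acsl3 read -0.26 and -0.19 in control, 0.35 and -0.09 with CHIR99021, 0.14 and 0.05 under VPA, and 0.23 and 0.04 with both. All 6 treated values of Acsl3 lay above both control values, but none of its differences passed the test. Acsl1 (0.25 ± 0.25) and Acsl5 (0.10 ± 0.18) differed from control by about their standard error or less with VPA.

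Carnitine acyltransferases move acyl groups between coenzyme A and carnitine so that they can cross organelle membranes, and 3 of the 4 rose with VPA. Crot, the octanoyltransferase through which chain-shortened acids leave peroxisomes, read -0.18 and -0.13 in control, -0.72 and -0.86 with CHIR99021, 0.98 and 1.20 under VPA, and 0.07 and 0.18 with both. The 4 groups of Crot did not overlap, in the order CHIR99021, control, both compounds and VPA. Its VPA difference was 1.24 ± 0.11 (adjusted p = 0.0027, limma). Cpt1a, which makes the carnitine ester at the outer mitochondrial membrane and sets the rate of long-chain entry, read 0.18 and 0.25 in control, 0.09 and -0.22 with CHIR99021, 0.98 and 1.23 under VPA, and 0.74 and 1.01 with both. Cpt1a was high on all 4 arrays with VPA, alone or combined, and its VPA difference was 0.89 ± 0.15 (adjusted p = 0.018). Cpt2, which returns the acyl group to coenzyme A inside the mitochondrion, read 0.05 and 0.07 in control, -0.41 and -0.64 with CHIR99021, 0.92 and 1.05 under VPA, and -0.12 and -0.17 with both. Unlike Cpt1a, Cpt2 lay below control on both arrays with both compounds. Its VPA difference was 0.93 ± 0.11 (adjusted p = 0.0053). Crat, the acetyltransferase of both organelles, read 0.48 ± 0.16 against control with VPA (adjusted p = 0.12).

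The acyl-CoA dehydrogenases carry out the opening step of each mitochondrial cycle and differ in the chain length they accept. Acadvl, for very long chains, read -0.14 and -0.15 in control, -0.53 and -0.60 with CHIR99021, 0.57 and 0.91 under VPA, and -0.09 and -0.14 with both. The arrays with both compounds lay at or just above control, and the VPA arrays stood alone, with a difference of 0.88 ± 0.12 (adjusted p = 0.0095, limma). Acadl, for long chains, rose by 1.46 ± 0.27 with VPA (adjusted p = 0.022), with 1.59 in line 1 and 1.33 in line 2. The enzymes for shorter chains did not pass the test with VPA. Their differences were 0.19 ± 0.22 for Acadm (medium chains), 0.32 ± 0.12 for Acads (short chains) and 0.57 ± 0.23 for Acadsb (short branched chains).

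Hadha and Hadhb encode the subunits of the mitochondrial trifunctional protein, which carries out the later steps on long chains. The genes lie head to head on chromosome 5 with 0 protein-coding genes between them, and 272 bases separate their starts at 30154980 and 30155253 (GRCm38.p6, RefSeq). The 250 bases just upstream of Hadhb, which lie within that shared interval, are shown because both genes rose, with 2 copies of the GC box GGGCGG in capitals.
Hadhb, chr5:30155003-30155252, plus strand: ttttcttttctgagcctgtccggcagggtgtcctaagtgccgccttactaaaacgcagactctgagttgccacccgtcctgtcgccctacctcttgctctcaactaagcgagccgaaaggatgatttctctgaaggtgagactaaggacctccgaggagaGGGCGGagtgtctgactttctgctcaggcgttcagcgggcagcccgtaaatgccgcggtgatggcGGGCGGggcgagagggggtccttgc
Searched on both strands as GGGCGG and CCGCCC in the 250 upstream bases, this motif was present in 52.8% of 36 windows of the listed genes. It was present in 32.7% of all 32851 windows. The 36 windows cover 32 genes, and those of Hadha and Hadhb overlap. A link between this motif and the values was not tested, and a match shows no binding. Hadha read -0.22 and -0.11 in control, -0.34 and -0.37 with CHIR99021, 0.52 and 0.57 under VPA, and 0.18 and 0.24 with both. Hadhb read -0.33 and -0.33 in control, -0.48 and -0.52 with CHIR99021, 0.77 and 1.34 under VPA, and 0.28 and 0.32 with both. Both genes had the same order of groups, with CHIR99021 lowest, then control, both compounds and VPA, and no overlap between groups. The VPA difference was 0.71 ± 0.09 for Hadha (adjusted p = 0.0066, limma) and 1.39 ± 0.17 for Hadhb (adjusted p = 0.0068).

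Acaa2, the mitochondrial thiolase that splits off acetyl-CoA, read 0.08 and -0.04 in control, -0.67 and -0.73 with CHIR99021, 0.89 and 1.11 under VPA, and 0.02 and -0.03 with both. Its CHIR99021 arrays were low and its VPA arrays high, while the arrays with both compounds lay within the control range. The VPA difference was 0.98 ± 0.11 (adjusted p = 0.0045, limma). Etfb, a subunit of the electron transfer flavoprotein, read 0.40 and 0.26 in control, 0.05 and 0.01 with CHIR99021, 0.81 and 0.92 under VPA, and 0.38 and 0.31 with both. Control RNA of Etfb was brighter in Cy5 than in Cy3 on both control arrays, so its VPA difference was 0.54 ± 0.09 (adjusted p = 0.019) against the control arrays and 0.87 against a ratio of 0. The partner subunit Etfa (0.38 ± 0.15) and the flavoprotein's dehydrogenase Etfdh (0.62 ± 0.18) did not pass the test.

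Enoyl-CoA isomerases move misplaced unsaturated bonds so that unsaturated fatty acids can enter the cycle, and the pair on the list went in opposite directions with VPA. Eci2, which acts in both organelles, read 0.03 and 0.06 in control, 0.12 and 0.06 with CHIR99021, 0.86 and 1.13 under VPA, and 0.34 and 0.69 with both. The 4 arrays with VPA stood well above control and the CHIR99021 arrays near it, and the VPA difference was 0.95 ± 0.15 (adjusted p = 0.013, limma). Eci1, the mitochondrial isomerase, read 0.06 and 0.05 in control, -0.27 and -0.18 with CHIR99021, -0.45 and -0.43 under VPA, and -0.91 and -0.72 with both. Every treated array of Eci1 lay below control, lowest with both compounds. Eci1 was the 1 gene of the list that fell with VPA, by 0.49 ± 0.10 on the log2 scale (adjusted p = 0.028).

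The other members with a negative VPA value were Hadh, Echs1 and Acox2, and none of them passed the test. Hadh, the short-chain hydroxyacyl-CoA dehydrogenase, read -0.36 and -0.34 in control, -0.88 and -0.92 with CHIR99021, -0.93 and -0.45 under VPA, and -0.98 and -0.71 with both. All 6 treated arrays were below control, and the lines differed by more with VPA than in any other group. Echs1, the short-chain enoyl-CoA hydratase, read -0.04 and 0.12 in control, 0.02 and -0.05 with CHIR99021, -0.02 and -0.12 under VPA, and -0.11 and -0.09 with both. Across the 8 arrays its values ran only from -0.12 to 0.12, with overlapping groups. Bdh1, which interconverts the ketone bodies, read 0.24 ± 0.23 with VPA, with 0.48 in line 1 and 0.01 in line 2.

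Within the peroxisome, Ehhadh is the bifunctional enzyme for the middle steps on straight chains, and Hsd17b4 is its counterpart for branched chains and bile acid precursors. Ehhadh rose by 0.86 ± 0.17 with VPA (adjusted p = 0.028, limma) and Hsd17b4 by 0.54 ± 0.12 (adjusted p = 0.041). Acox2, the oxidase for branched chains and bile acid precursors, read 0.04 and 0.12 in control, 0.05 and -0.28 with CHIR99021, -0.32 and -0.24 under VPA, and -0.69 and -0.91 with both. It was lowest with both compounds, and the VPA difference was -0.36 ± 0.14 (adjusted p = 0.15). The peroxisomal thiolases Acaa1a (0.49 ± 0.43) and Acaa1b (0.99 ± 0.30, adjusted p = 0.090) and the dienoyl-CoA reductase Decr2 (0.38 ± 0.11, adjusted p = 0.069) did not pass. Acaa1a and Acaa1b are near-identical genes close together on chromosome 9, so their probes may read each other's transcripts. Acaa1a also differed between lines, with -0.05 in line 1 and 1.03 in line 2.

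Pex11a, a membrane protein that drives peroxisome elongation and division, read 0.46 and 0.22 in control, 0.09 and -0.14 with CHIR99021, 1.57 and 1.74 under VPA, and 0.93 and 0.96 with both. Its 4 groups did not overlap. The VPA difference was 1.32 ± 0.13 (adjusted p = 0.0035, limma), and it stayed under the threshold in each of 18 alternative analyses. Among 15 other peroxins, which build and supply peroxisomes, 1 rose with VPA (Pex14, 0.49 ± 0.09) and 0 fell, with a median of 0.07. Of all genes 6.58% rose with VPA, so 1 of 15 was near the share of the array as a whole.

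Acyl-CoA thioesterases release free acids from coenzyme A. Acot2, the mitochondrial one, read -0.01 and 0.29 in control, 0.02 and -0.17 with CHIR99021, 1.77 and 2.56 under VPA, and 0.92 and 0.95 with both. Acot2 had the largest VPA difference of the 36 genes, 2.03 ± 0.25 (adjusted p = 0.0066, limma), a 4.09-fold higher level. Acot3, a peroxisomal one, read -0.03 and 0.03 in control, -0.24 and -0.38 with CHIR99021, 1.08 and 0.93 under VPA, and -0.003 and -0.19 with both. The VPA arrays of Acot3 stood alone, with a difference of 1.00 ± 0.11 (adjusted p = 0.0048). Acot3 is dim, and its VPA value was 1.44 with median centring and 2.33 from the scanner software's own ratios. It was not well above background on the CHIR99021 arrays, so no fold is given against them. Acot4 read 0.62 ± 0.16 with VPA (adjusted p = 0.055), with 1.25 from a second probe, and Acot8 read 0.10 ± 0.09. Acot2, Acot1, Acot4 and Acot3 are similar neighbouring genes on chromosome 12, so how far each probe reads its relatives is uncertain.

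**Figure D2:**
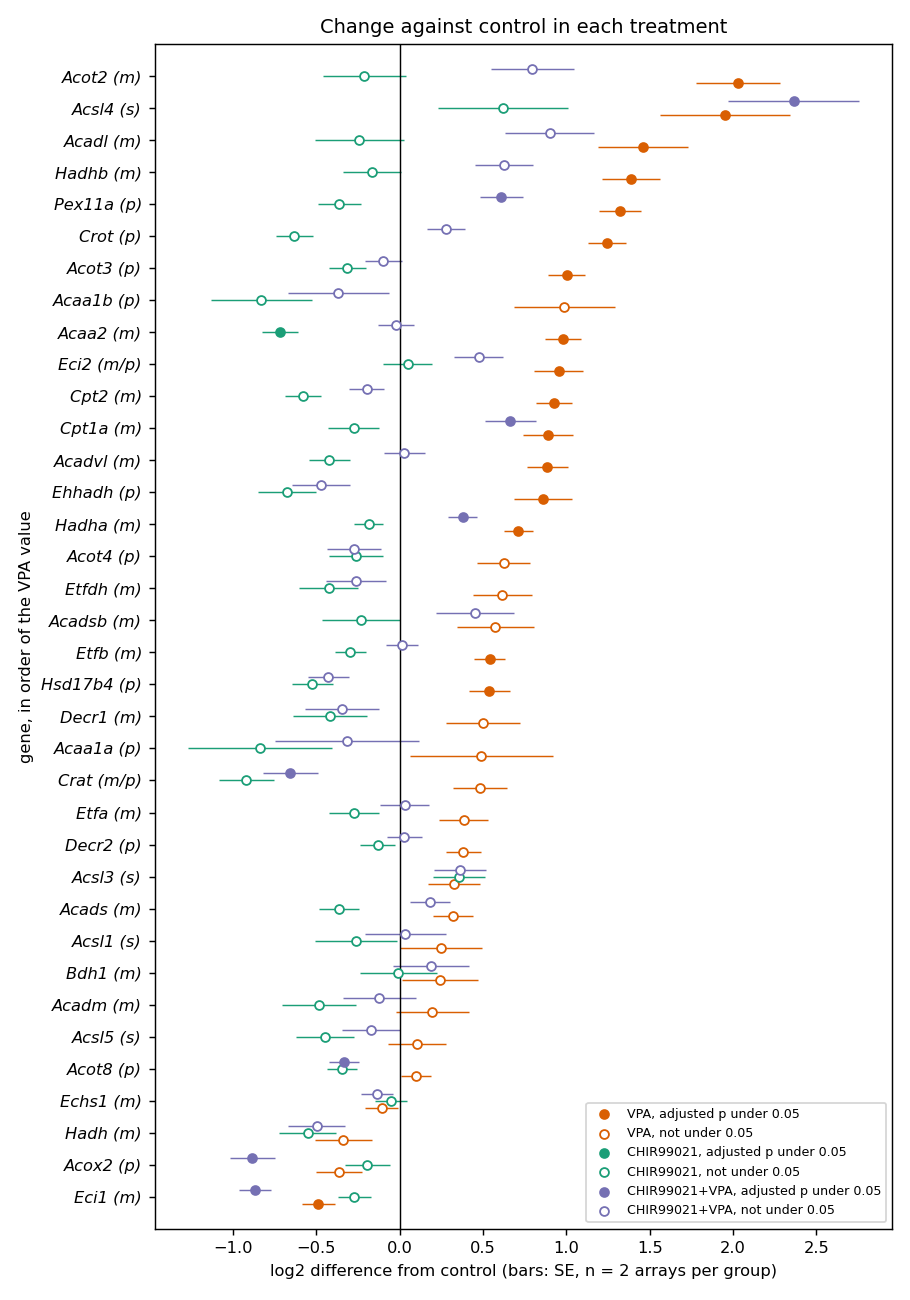
Log2 difference from control (horizontal axis) for each of the 36 genes, ordered by the VPA value, with bars for the standard error and n = 2 arrays per group. Filled symbols passed the test. VPA points lie to the right of 0 for 32 genes and CHIR99021 points to the left for 33, while points for both compounds are split 18 to 18.

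The VPA calls depended on the control arrays. The list count of 17 became 1 without the control array of line 1, 2 without that of line 2 and 11 without the VPA array of line 2. Acsl4, Acadl and Eci1 lost their calls without either VPA array, Ehhadh also without that of line 1, and Cpt1a, Etfb and Hsd17b4 also without that of line 2. Pex11a kept its call in all of these, and Crot lost it only without control line 1. With all arrays kept, median centring ended the calls of Hadha, Etfb, Eci1 and Hsd17b4, and the software's ratios those of Eci1 and Hsd17b4. Keeping outlier spots in the background model ended those of Ehhadh and Hsd17b4, and fitting only the compared groups those of Etfb and Hsd17b4. Organoid line pairs the samples, since each slide held 1 line with all 4 groups, and with line as a block 22 of the 36 rose and 1 fell, where 19.5% of all genes were called.

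CHIR99021 alone gave mostly negative values. Of the 36 genes, 33 read below control and 28 did so in both lines, with a median of -0.31 over the list and 0.0083 over all genes. Both CHIR99021 arrays lay below both control arrays for 27 of the 36 genes and for 25.3% of all genes. Few of the 36 differences passed the test, as 1 gene fell and 0 rose. Of all genes, 1.01% fell, 0.114% rose and 1.12% were called in either direction. Without adjustment, 17 of the 36 had p under 0.05, as did 12.8% of all genes. The gene that fell was Acaa2, by 0.72 ± 0.11 (adjusted p = 0.042, limma), and both of its CHIR99021 arrays, given above, lay below all others. That call was lost with median centring, with outlier spots kept in the background model, with the software's ratios, and without any array of control, CHIR99021 or both compounds.

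With line as a block, 4 of the 36 genes fell with CHIR99021, where 2.89% of all genes were called in either direction. The 3 added were the carnitine transferases Crat, Crot and Cpt2, with adjusted p between 0.026 and 0.045. Over all alternatives, the adjusted p of these 3 ranged from 0.0021 to 0.65. Without the block they read -0.92 ± 0.16, -0.63 ± 0.11 and -0.58 ± 0.11 against control. Crat read 0.03 and 0.01 in control, -0.93 and -0.88 with CHIR99021, 0.43 and 0.57 under VPA, and -0.89 and -0.39 with both. CHIR99021 arrays of Crat were low with or without VPA. The 3 genes with a positive CHIR99021 value were Acsl4 (0.62 ± 0.39), Acsl3 (0.35 ± 0.16) and Eci2 (0.05 ± 0.15), and none passed the test.

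With both compounds, 4 genes rose, 4 fell and 28 did not pass. Over all genes, 8.43% rose and 7.09% fell, so the shares of the list, 4 of 36 in each direction, were near those of the array as a whole. The median difference was -0.005, with 18 values above 0 and 18 below. Those that rose were Acsl4 (2.36 ± 0.39, adjusted p = 0.010, limma), Cpt1a (0.66 ± 0.15, adjusted p = 0.032), Pex11a (0.61 ± 0.13, adjusted p = 0.023) and Hadha (0.38 ± 0.09, adjusted p = 0.033). All of these had also risen with VPA alone. These comparisons share the control arrays, so the overlap is not independent evidence. Those that fell were Acox2 (-0.88 ± 0.14, adjusted p = 0.0085), Eci1 (-0.87 ± 0.10, adjusted p = 0.0031), Crat (-0.66 ± 0.16, adjusted p = 0.041) and Acot8 (-0.33 ± 0.09, adjusted p = 0.0499), a peroxisomal thioesterase. Eci1 kept this call in all 18 alternatives, and Acot8 lost it in 14. Cpt1a, Hadha and Crat each lost theirs with median centring and with outlier spots kept in the background model. Hadha and Crat also lost theirs with the software's ratios and with only the compared groups fitted. With line as a block, 9 rose and 6 fell, where 25% of all genes were called. The count was 1 without either control array, and 5 without either CHIR99021 array or either array with both compounds.

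Comparing both compounds with CHIR99021 alone gives the change on adding VPA where CHIR99021 is present. Its differences do not use the control arrays, but its p-values do, through the pooled spread. The median difference was 0.31, and 9 of the 36 genes rose and 2 fell, where 6.21% of all genes rose and 3.81% fell. The risers were Acsl4 (1.74 ± 0.39), Acadl (1.14 ± 0.27), Pex11a (0.97 ± 0.13), Cpt1a (0.94 ± 0.15), Crot (0.91 ± 0.11), Hadhb (0.79 ± 0.17), Acaa2 (0.69 ± 0.11), Hadha (0.56 ± 0.09) and Acads (0.55 ± 0.12). Adjusted p for these ranged from 0.0070 for Crot to 0.046 for Acadl (limma). Of the 9, 8 were also among the 16 that rose with VPA alone, the exception being Acads. Eci1 (-0.59 ± 0.10) and Acox2 (-0.69 ± 0.14) fell here too. With all arrays kept, the count of 11 became 7 with median centring, 6 with outlier spots kept and 1 when only these groups were fitted. It was 0 without the CHIR99021 array of line 2, and 4 without either control array, the CHIR99021 array of line 1 or the array of line 1 with both compounds.

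Comparing both compounds with VPA alone gives the change on adding CHIR99021 where VPA is present. Here 8 of the 36 genes fell and 0 rose, where 1.03% of all genes fell, 0.0883% rose and 1.12% were called in either direction. The median was -0.52 over the list and 0.0098 over all genes, and 34 of 36 values were negative, 31 of them in both lines. Ehhadh fell by 1.33 ± 0.17, Crat by 1.14 ± 0.16, Cpt2 by 1.13 ± 0.11, Acot3 by 1.10 ± 0.11, Acaa2 by 1.00 ± 0.11, Crot by 0.97 ± 0.11, Hsd17b4 by 0.96 ± 0.12 and Acadvl by 0.86 ± 0.12. Adjusted p for these ranged from 0.017 to 0.036 (limma). Acot3 was well above background on only 1 of the 2 arrays with both compounds, and its value ran from -2.42 with the software's ratios to -1.01 without the array of line 2 with both compounds. All of them but Crat had risen with VPA alone, and these comparisons share the VPA arrays. Acsl4 (0.41 ± 0.39) and Acsl3 (0.04 ± 0.16) were the 2 genes with a positive value.

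With line as a block, 15 of the 36 genes fell on adding CHIR99021 to VPA, where 3.18% of all genes were called in either direction. The 7 added were Acaa1b, Acot2, Acot4, Etfdh, Decr1, Pex11a and Etfb. Their adjusted p was between 0.024 and 0.044 with the block, and from 0.021 to 0.61 over all alternatives. The unblocked count of 8 was 0 without either control array or the VPA array of line 2, and 4 without either CHIR99021 array. It was 2 without the array of line 1 with both compounds and 5 without that of line 2. Median centring gave 4, outlier spots kept in the background model 2, the software's ratios 1 and fitting only these groups 0.

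Whether the VPA difference changed with CHIR99021 was tested as an interaction. None of the 36 genes and none of the 19254 (0%) passed at an adjusted p under 0.05 in limma, and 9 of the 36 and 511 of all genes (2.65%) had an unadjusted p under 0.05. The list had 27 negative and 9 positive interaction values, with a median of -0.26. Values ranged from -1.02 ± 0.36 for Acot2 to 0.39 ± 0.24 for Hadh. A smaller VPA difference in the presence of CHIR99021 was therefore not established for any gene of the list.

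Mitochondrial and peroxisomal genes were compared by their medians. With VPA, 9 of 19 mitochondrial genes rose and 1 fell (median 0.57), and 5 of 11 peroxisomal genes rose (median 0.62). The peroxisomal minus mitochondrial median was 0.05, with 0.27 in line 1 and 0.01 in line 2, and 0.28 with all probes of a gene averaged. It was -0.12 without the VPA array of line 1, -0.06 without the control array of line 1, 0.11 without that of line 2 and 0.19 without the VPA array of line 2. With CHIR99021, all 19 mitochondrial and all 11 peroxisomal values were below 0, with medians of -0.28 and -0.36. That difference was -0.09, with -0.06 in line 1 and 0.008 in line 2, so the lines did not share its sign. It was -0.22 with the software's ratios, -0.20 without the control array of line 2 and -0.17 with both dyes above background on all arrays. Averaging all probes gave -0.15, and leaving the control arrays unsubtracted gave -0.014. With both compounds the peroxisomal median was lower, at -0.32 against 0.03. That difference was -0.34, with -0.42 in line 1 and -0.24 in line 2. Without subtracting the control arrays it was -0.12, and in line 2 both medians were then -0.03. On adding CHIR99021 to VPA, 4 of 11 peroxisomal genes fell with a median of -0.90, and 3 of 19 mitochondrial genes fell with a median of -0.38. Genes are not replicates of a treatment, so these differences of medians carry no test.

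**Figure D3:**
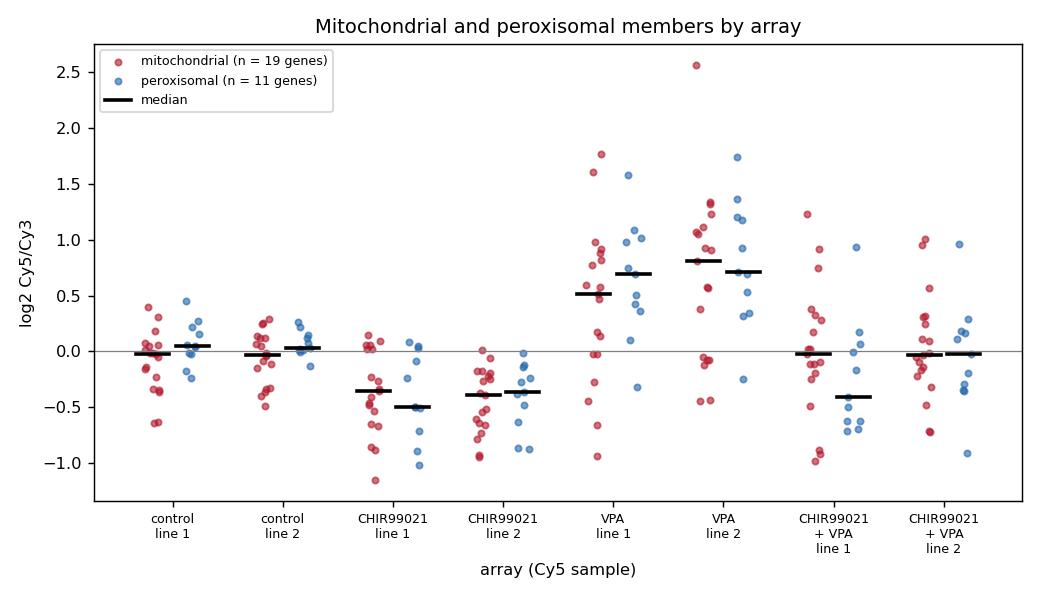
Log2 Cy5/Cy3 of the 19 mitochondrial and 11 peroxisomal genes on each array, with a bar at each median. Medians of both sets lie between -0.50 and -0.36 on the CHIR99021 arrays and between 0.52 and 0.81 on the VPA arrays. With both compounds in line 1 the peroxisomal median is -0.40 and the mitochondrial one -0.02, while in line 2 both are at -0.03.

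Other genes around the pathway were examined as further lists. With VPA, where 6.58% of all genes rose and 4.27% fell, 8 of 31 other oxidation enzymes and transporters tested rose and 0 fell. The median of the 31 was 0.20. Those that rose included the mitochondrial-membrane acetyl-CoA carboxylase Acacb (2.40 ± 0.15, adjusted p = 0.00092, limma), whose product inhibits Cpt1a, and the thioesterase Acot1 (3.16 ± 0.26). The peroxisomal fatty acid importer Abcd3 rose by 1.50 ± 0.16 and the thioesterase Acot12 by 1.80 ± 0.20. With CHIR99021, 3 of these 31 fell and 0 rose, where 1.01% of all genes fell and 0.114% rose. With both compounds 3 rose and 4 fell, where 8.43% of all genes rose and 7.09% fell.

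The 17 tricarboxylic acid cycle genes tested, which burn the acetyl-CoA that oxidation delivers, had a median of -0.01 with VPA, and 0 of them passed the test in limma, with 4 at an unadjusted p under 0.05, where 26% of all genes were. The nearest were Idh3a (0.60 ± 0.15, adjusted p = 0.051) and Suclg1 (0.44 ± 0.11, adjusted p = 0.052). Among 10 genes of branched-chain and short-chain acyl-CoA breakdown, 3 rose and 1 fell with VPA, where 6.58% of all genes rose and 4.27% fell. The propionyl-CoA carboxylase subunits were split, with Pcca at 0.73 ± 0.10 and Pccb at -0.85 ± 0.15. Of 12 regulators, 0 rose and 1 fell with VPA, the retinoid receptor Rxra, the dimer partner of PPAR alpha (-0.51 ± 0.12, adjusted p = 0.042). Ppara, which encodes PPAR alpha, read 0.28 ± 0.12 with VPA (adjusted p = 0.19), fell by 0.89 ± 0.12 with CHIR99021 (adjusted p = 0.031) and fell by 1.37 ± 0.12 from VPA alone to both compounds (adjusted p = 0.013). Ppara was named after its values were seen. With CHIR99021, 2 of the 12 regulators fell and 0 rose (median -0.03), where 1.01% of all genes fell. From VPA alone to both compounds, 2 fell and 0 rose (median -0.05), where 1.03% of all genes fell. In each of these comparisons 4 of the 12 values were positive.

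Enterocyte markers moved alongside the oxidation genes in part. With CHIR99021, 4 of 14 enterocyte markers fell, where 1.01% of all genes did, and all 14 read below control (median -1.83). With both compounds against VPA alone, 6 of 14 fell, where 1.03% of all genes did, and all 14 were lower (median -1.80). The mean log2 ratio over the 14 markers was -0.05 and -0.04 in control, -1.60 and -1.86 with CHIR99021, -0.12 and -0.29 under VPA, and -2.37 and -1.62 with both. The mean over the 36 oxidation genes was -0.04 and -0.02, -0.32 and -0.41, 0.52 and 0.70, and -0.02 and 0.06 in the same order. Enterocyte markers were low in both groups with CHIR99021, whereas the oxidation genes were low with CHIR99021 alone and near control with both compounds. With VPA alone the enterocyte markers went both ways, with 6 values above 0 and 8 below (median -0.23). Treh, Slc6a19 and Apoa1 fell and 0 rose, where 4.27% of all genes fell and 6.58% rose. The fatty acid binding proteins Fabp2 (2.27 ± 0.57, adjusted p = 0.052, limma) and Fabp1 (2.16 ± 0.60, adjusted p = 0.071) had the highest values. The log2 summed Cy5 signal of the 14 markers was 18.3 and 18.4 in control, 17.2 and 17.1 with CHIR99021, 18.8 and 18.7 under VPA, and 16.6 and 17.2 with both. This sum is taken on the linear scale, so the brightest markers weigh most in it. The sum was higher on both VPA arrays than on both control arrays, whereas the mean log2 ratio was lower. The part of enterocyte number in the oxidation values was not tested.

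**Figure D4:**
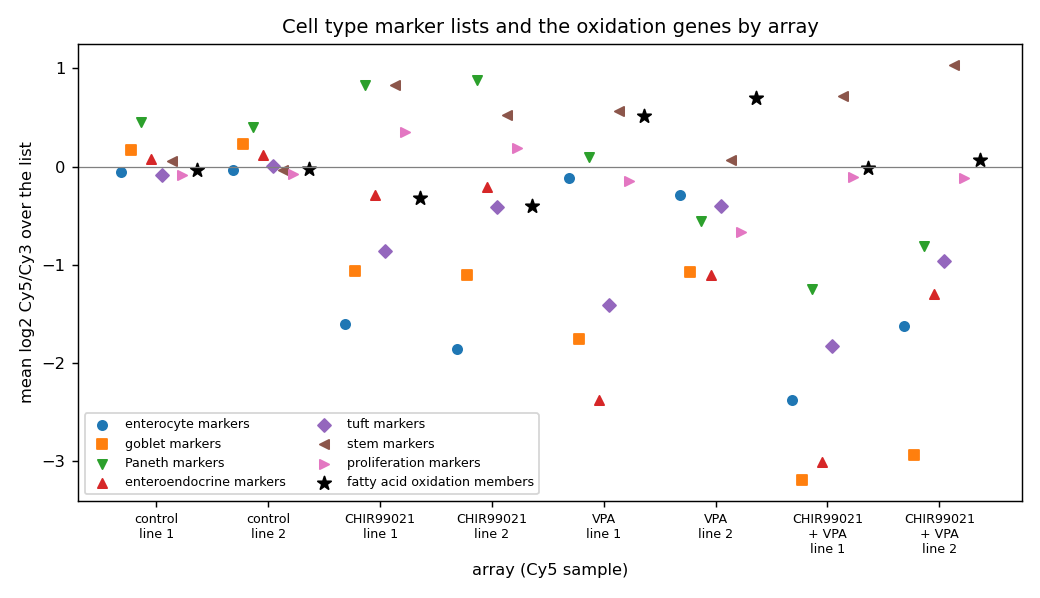
Mean log2 Cy5/Cy3 over each marker list of intestinal cell types and over the 36 oxidation genes (black stars) on each array. Stars are above 0 on the VPA arrays (0.52 and 0.70), where goblet, enteroendocrine and tuft means lie below 0. Enterocyte means lie between -2.37 and -1.60 on the 4 arrays with CHIR99021.

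Markers of other cell types also differed with VPA, where 4.27% of all genes fell and 6.58% rose. Of 6 goblet markers 5 fell (median -1.43), of 6 enteroendocrine markers 3 fell (median -2.31), and of 5 tuft markers 1 fell (median -1.08). Of 6 Paneth markers 1 fell and of 6 proliferation markers 1 fell, and 0 of 5 stem cell markers passed the test in limma, with 1 at an unadjusted p under 0.05. Of the 3 fibroblast markers tested, Col1a1 rose by 0.79 ± 0.14 and was above background on 4 of the 8 arrays, while Dcn was above it on 0 and Col3a1 on 2. Col1a2, above background on all 8 arrays, read -0.0065 ± 0.13 against control with VPA (adjusted p = 0.98, limma). Vim, above background on all 8, read -0.15 against control in line 1 and 2.77 in line 2 with VPA (adjusted p = 0.52). The mean log2 ratio of all 5 fibroblast markers was 0.07 and 0.08 in control, -0.08 and -0.08 with CHIR99021, 0.18 and 0.79 under VPA, and 0.50 and 1.09 with both. Their part in the oxidation values was not tested.

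Promoter windows of RefSeq (GRCm38.p6), from 250 bases before to 50 after a gene's start, were matched for 32 of the 36 genes, giving 36 windows. No window was matched for Acaa2, Crat, Decr1 and Hsd17b4. They were searched on both strands for the direct repeat bound by PPAR and its partner RXR (AGGTCA, any base, AGGTCA), allowing 2 mismatches among its 12 fixed letters. It was found in 4 of 36 windows (11.1%) and in 3.86% of all 32851 windows. The matches in Acot4, Etfa and Echs1 are printed with the match in capitals, because they lie upstream of the start. The match in Acox2 starts 9 bases after it.
Acot4, chr12:84038349-84038378, plus strand: ggctcagccccgaagcaTGACCTTTGGCCG
Etfa, chr9:55512300-55512329, minus strand: cgcacacccTTACCTTTGCCCTactcccaa
Echs1, chr7:140116484-140116513, minus strand: agcccgctcAGGTCACGGGTCCacccctta
With VPA the values of these genes were 0.62 ± 0.16 for Acot4 (1.25 from a second probe), 0.38 ± 0.15 for Etfa, -0.11 ± 0.10 for Echs1 and -0.36 ± 0.14 for Acox2. A link between matches and values was not tested. A match describes letters in the window and shows no binding.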

How the data were processed

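Per the file headers, arrays were scanned into numbers by Agilent's software Feature Extraction (version 10.5.1.1). The deposited intensity values are median pixel brightness of spot and local background in each dye, on a linear scale. The deposited log10 ratio is the software's own background-subtracted, dye-normalised Cy5 over Cy3, per the file headers. The authors' series table gives log2 values for 19228 spots, equal to that ratio within 5e-10, so scale, direction and absence of further centring are known. In line 1 the median of its column was 0.0039 for control, 0.017 for CHIR99021, -0.028 for VPA and -0.0080 for both compounds. In line 2 it was 0.0057, 0.036, -0.024 and -0.0027 in that order. The other deposited columns used are flags of 0 or 1, and 0 columns were unmapped. The authors' way of calling genes was not given in the sources used.

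An array carried 45018 spots, 1639 of them controls. Here, background was corrected by normexp (offset 50) with outlier spots out of the model, because on the CHIR99021 array of line 1 they raised its noise estimate from 1.02 to 905 in Cy3. Ratios were normalised by loess within arrays, with controls and outlier spots at weight 0 (limma 3.58.1, R 4.3.3). The brightest probe per gene was kept. Genes needed Cy5 signal well above background on both arrays of 1 or more groups (19333), and 79 with a missing value were dropped. One fit with 4 group means covered all 8 arrays and gave the adjusted p-values. Scripts were tested on simulated data. Probe symbols follow RefSeq GRCm38.p6 names, matched for 27479 of 41174 probes. Deviations of same-line arrays correlated across genes with r between 0.122 and 0.755 over the 6 pairs of groups, and line coincides with slide.

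The 36 genes and the further lists were chosen with earlier results of these data known. Named genes were those past the threshold (array values for 12 in order of the VPA adjusted p, every CHIR99021 call and those against the list's direction), and up to 4 genes per further list. Array number limits the precision. Alternatives were normalisation, background, filter, probe choice, variance model, block, groups fitted, reference and each array left out. A few genes of the further lists are not reported here.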

Additional observations from a re-analysis of the deposited data

How the results depend on the processing

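The list count past the threshold with VPA (17) was 26 when treated ratios were tested against 0, and 13 to 23 with the 9 other settings that kept all arrays. For CHIR99021 (1) it was 0 with median centring, outlier spots kept in the background model or the software's ratio, 4 with line as a replicate block, 9 with only the compared groups and 16 against 0. For both compounds (8) it was 5 with median centring, 4 with outlier spots kept, 15 with the block and 16 against 0. For both compounds against CHIR99021 (11) it was 7, 6 and 1 with median centring, outlier spots kept and only the compared groups. Against VPA (8) it was 4, 2, 1 and 0 with median centring, outlier spots kept, the software's ratio and only the compared groups, and 15 with the block. Leaving out each array gave 1 to 19 for VPA, 0 to 1 for CHIR99021, 1 to 10 for both compounds, 0 to 12 against CHIR99021 and 0 to 8 against VPA, where a lone array was assumed to vary like the other groups. The interaction count was 0 throughout (9 of 36 unadjusted, limma).

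The peroxisomal minus mitochondrial list median with VPA was 0.28 with all probes averaged. For CHIR99021 it was -0.22 with the software's ratio, -0.17 with both dyes above background on all arrays, -0.15 with all probes averaged and -0.014 against 0. For both compounds it was -0.12 against 0. Leave-one-out ranges were -0.12 to 0.19, -0.20 to -0.063 and -0.45 to -0.19.

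Sign turns were not counted where both values were small against their standard errors and neither passed the test. The counted turns were Hadha with CHIR99021 (0.004, outlier spots kept), and against 0 Acadm (-0.36) and Acads (-0.033) with VPA, Etfb with CHIR99021 (0.032) and Acads with both compounds (-0.17). None of these passed the test in the main analysis, and causes were not tested. Of all values of single genes under alternatives, 3380 kept their side of the threshold without a counted sign turn. A further 103 passed it newly, 250 no longer did and 5 had a counted sign turn. Dim Acot3 is the 1 gene limited by background. With the block, counts other than those given stayed within 1.5 times.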
